A study of Mus musculus with 10 samples.

Results

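Respiratory complexes II to V, with the mobile carrier cytochrome c, were described here through 52 nuclear genes of 19938 that the platform's probe annotation named singly. Members were taken by symbol: the succinate dehydrogenase subunits and assembly factors (Sdha to Sdhd and Sdhaf), genes beginning with Uqcr, Cox4 to Cox8 or Atp5, and Cyc1 and Cycs. A gene with several probe sets was represented by the set with the highest mean. Of the 52, 49 reached the 40th percentile of gene means (3.23 on the log2 scale) and were tested among 11963 genes. They comprised 4 complex II subunits and 4 of its assembly factors, 9 complex III genes, Cycs, 14 complex IV genes, 5 genes of the F1 sector of complex V and 12 of its Fo sector and stalks. The other 3, Cox6b2, Cox7b2 and Cox8c, lay near the bottom of the scale, with signals from 1.85 to 3.43 over all arrays, and were not tested.

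The tissue was gastrocnemius, a calf muscle, from male mice of the C57BL/6 strain, and each of the 10 Affymetrix arrays held a pool from 5 animals. In the F0 generation, taken at 28 weeks of age, F0 EX animals had exercised voluntarily and F0 SED animals had led a sedentary life, with 1 pool for each. F0 animals were mated with partners of the same exposure, and littermates were mated to give the F2 generation; F1 and F2 males were all sedentary and were taken at 8 weeks, with 2 pools for each generation and ancestry, so that EX and SED name what the F0 forebears did. The labels name no transgene, deletion or drug in any group. The labels do not say that the pools of a group held different animals, so a p-value here speaks only of how these pools vary, which may be technical variation. Age, own exposure and generation cannot be told apart where F0 is set against its descendants.

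These complexes form the later part of the respiratory chain in the inner mitochondrial membrane. Succinate dehydrogenase (complex II) passes electrons from the tricarboxylic acid cycle to ubiquinone, the cytochrome bc1 complex (complex III) hands them to cytochrome c, and cytochrome c oxidase (complex IV) gives them to oxygen. Complexes III and IV pump protons, and ATP synthase (complex V) uses the gradient to make ATP. In mammals several complex IV subunits and the c subunit of ATP synthase exist as isoforms from separate genes, and heart and skeletal muscle use forms of their own such as Cox6a2, Cox7a1 and Cox8b. The content of these complexes is a usual measure of the oxidative capacity of muscle, and endurance exercise is known to raise it.

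The F0 SED array and F1 EX pool 1 stood apart from the others, and the members showed it. Across all genes tested, the median Pearson r with the other 9 arrays was 0.974 for F0 SED and 0.979 for F1 EX pool 1, against 0.986 to 0.993 for the rest. F0 SED was the lowest of the 10 arrays for 26 of 49 members (53.1%, against 27.2% of all genes tested), and F1 EX pool 1 was the highest for 18 (36.7%, against 21.9%). The main counts, and the named genes that rest most on these arrays, are therefore also given without them. The muscle markers fixed for this work (Acta1, Ckm, Tnnt3, Myh4, Myh1, Mylpf and Pvalb) lay between 11.12 and 13.54 in every array. Their summed linear signal was 40300 in F0 SED, 50900 in F0 EX and 44700 to 55800 in the descendants. All 7 had estimates below 0 in F0 against descendants (median -0.21) and above 0 in F2 against F1 (median 0.12), with 0 calls in either. Of 5 fibroblast and tendon markers, 4 fell in F0 (limma adjusted p under 0.05), and their summed signal was 1890 and 1780 in the exercised and sedentary F0 pools, against 5330 to 6860 in the descendants. Of 5 endothelial markers 3 fell in F0, with sums of 558 in F0 EX, 472 in F0 SED and 671 to 773 in the descendants. Of 5 keratinocyte markers, 4 of them tested, 3 rose in F0, with sums of 92.6 in F0 EX, 195 in F0 SED and 46.3 to 63.6 in the descendants. Of 6 myeloid markers 5 were below 0 in F0 (median -0.30), as were both Schwann cell markers tested (median -0.42), with 0 calls. The slow fibre markers had 0 calls of 6 in F0, with sums of 2910 in F0 EX, 1980 in F0 SED and 2240 to 3000 in the descendants. All 6 were above 0 for EX against SED ancestry in F2 (median 0.30) and over both generations (median 0.17). All 5 adipocyte markers tested were below 0 for EX ancestry in F1 (median -0.91) and over both generations (median -0.55). In F0 against descendants 4 of these 5 were above 0 (median 0.37). Their sums were 998 in F0 EX, 975 in F0 SED and 569 to 1320 in the descendants. Neither list had a call. Of the brown adipocyte markers, Ucp1 and Elovl3 lay below the filter. Of 5 heart markers, the 3 tested were above 0 in F0 (median 0.42), with 0 calls. The sums of the 5 were 152 in F0 EX, 96.7 in F0 SED and 70.8 to 119 in the descendants. The 2 erythrocyte markers tested had a median of 0.00 in F0, with 0 calls. The part of these cells in the values below was not tested. In such bulk RNA, fewer cells of a type and less RNA per cell cannot be told apart.

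**Figure D1:**
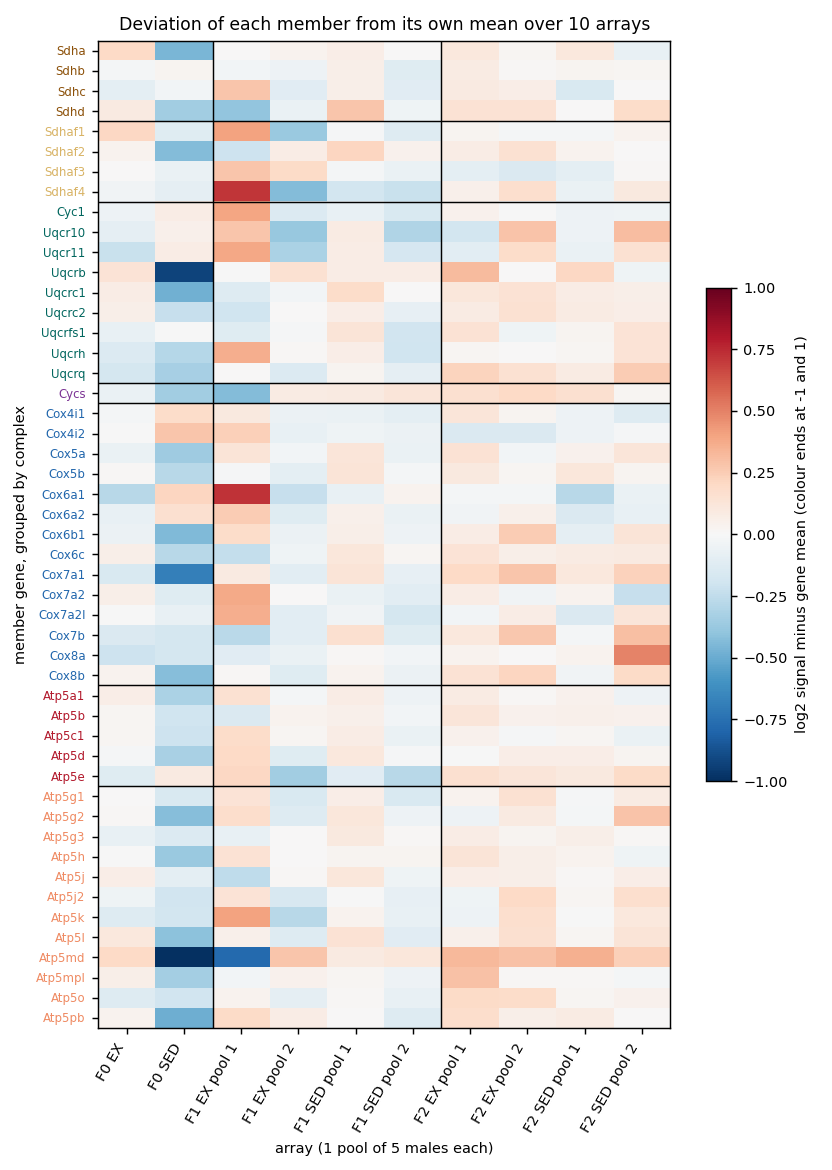
Log2 signal of the 49 tested members (rows, grouped by complex from complex II at the top to the Fo sector and stalks of complex V at the bottom) in the 10 arrays (columns), as a difference from the gene's own mean over 10 arrays; red is higher and blue lower, and the colours end at -1 and 1. The F0 SED column is mostly blue, with Atp5md, Uqcrb and Cox7a1 the deepest, and the F1 EX pool 1 column mixes red (Cox6a1, Sdhaf4) and blue (Atp5md, Cycs, Sdhd).

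Muscle of F0 was set against that of the descendants. Most members had lower estimates in F0, and none passed the test. Of the 49 members 43 had estimates below 0, against 54.9% of all genes tested, and their median was -0.16, against -0.02 over all genes tested (differences on the log2 scale here and below). With limma and Benjamini-Hochberg adjustment over 11963 genes, 0 of 49 members passed at 0.05, where 2.84% of all genes did. At an unadjusted p under 0.05 there were 7 members, all lower in F0, where 18.1% of genes were in either direction and 10.3% with F0 lower. The lowest adjusted p among members was 0.0672. The direction leaned in part on the F0 SED array. Without it 34 of 49 estimates were below 0, with a median of -0.07 against 0.02 over all genes. The members' median less that of all genes thus went from -0.13 to -0.09. With F0 SED as the only F0 array, 6 members were called (Atp5md, Atp5pb, Cox7a1, Sdha, Uqcrb and Uqcrc1), where 10.8% of genes were, taking the spread of that single pool from the other arrays. With quantile normalization 37 of 49 estimates were below 0, and the median was -0.04, against 0.00 over all genes.

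**Figure D2:**
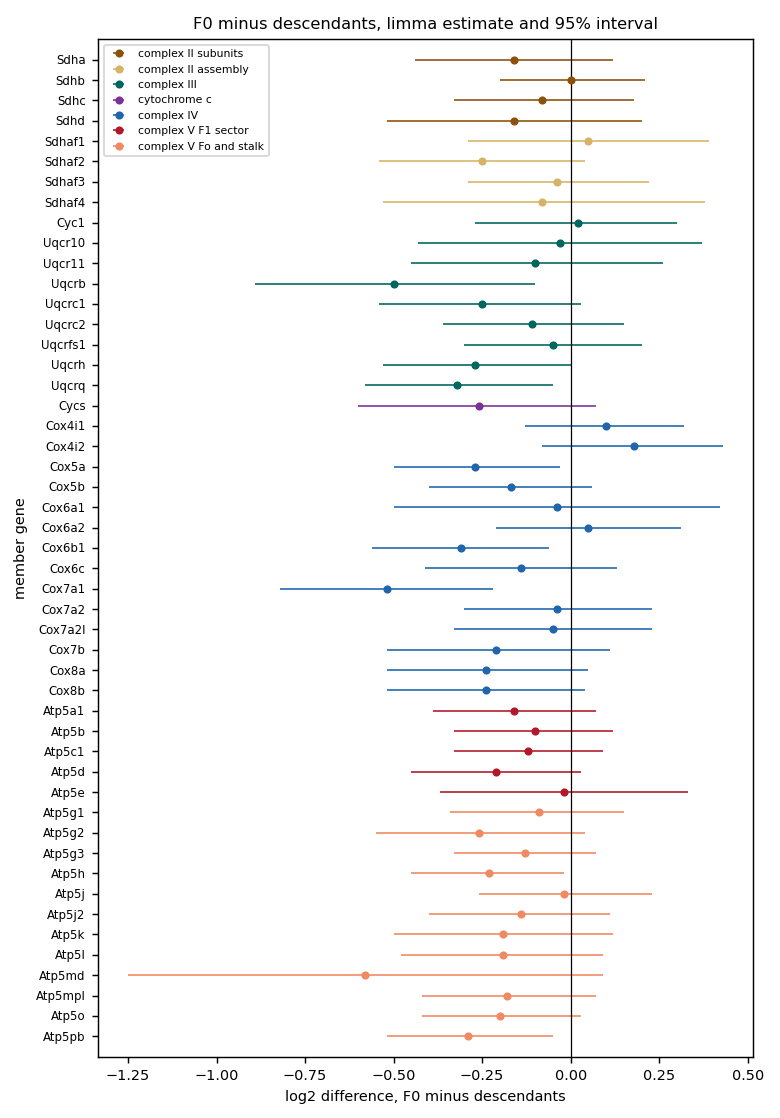
Limma estimates (points) and 95% confidence intervals (bars) of the log2 difference between the 2 F0 arrays and the 8 descendant arrays for 49 members, coloured by complex. Most points lie left of 0, from -0.58 for Atp5md to 0.18 for Cox4i2, and 48 of 49 intervals stay within 1 either side of 0.

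Cox7a1, the heart and skeletal muscle form of a small complex IV subunit, had the smallest p of all members. Its log2 signal was 10.18 in F0 EX and 9.65 in F0 SED, and in the 8 descendant arrays it ran from 10.23 through a median of 10.45 to 10.61. Both F0 arrays thus lay below every descendant array, F0 SED well below and F0 EX by little. The estimate was -0.52 (SE 0.139, 95% interval -0.82 to -0.22), a level 1.44-fold lower in F0, with a limma adjusted p of 0.0672. It passed with trend and robust settings (adjusted p = 0.0486), without F1 EX pool 1 (0.0403) and without F1 EX pool 2 (0.0467). It was the only member of 49 to pass in these settings, where 3.1%, 6.45% and 2.17% of all genes did. Over the scaling, filter, probe set and model alternatives the adjusted p lay between 0.0486 and 0.493, and it was 0.598 against F1 alone and 0.0591 against F2 alone. Without F0 SED the estimate for Cox7a1 was -0.26 (adjusted p = 0.553), and without F0 EX it was -0.78 (0.017). The promoter window of Cox7a1 is shown because the gene lay closest to the threshold, beside those of Atp5md, the member with the widest range over the arrays, and of Sdhd and Atp5j, which hold the motifs described further on. Each window runs from 250 bases before to 50 bases after the RefSeq start, 5′ to 3′ on the gene's strand (RefSeq, build GRCm38.p6), and capitals mark motif matches.
Cox7a1, chr7:30183921-30184220, plus strand: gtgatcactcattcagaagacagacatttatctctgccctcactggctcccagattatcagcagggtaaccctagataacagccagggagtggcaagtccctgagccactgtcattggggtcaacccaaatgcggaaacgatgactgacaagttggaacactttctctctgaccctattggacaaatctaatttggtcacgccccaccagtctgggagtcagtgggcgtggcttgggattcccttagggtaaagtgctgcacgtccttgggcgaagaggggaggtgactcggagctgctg
Atp5md, chr19:47090598-47090897, minus strand: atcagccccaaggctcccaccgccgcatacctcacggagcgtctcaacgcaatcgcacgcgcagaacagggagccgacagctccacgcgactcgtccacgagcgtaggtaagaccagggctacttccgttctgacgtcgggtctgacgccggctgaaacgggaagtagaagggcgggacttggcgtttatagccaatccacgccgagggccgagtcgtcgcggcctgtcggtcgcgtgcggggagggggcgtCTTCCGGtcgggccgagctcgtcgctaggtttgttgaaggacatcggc
Sdhd, chr9:50603800-50604099, minus strand: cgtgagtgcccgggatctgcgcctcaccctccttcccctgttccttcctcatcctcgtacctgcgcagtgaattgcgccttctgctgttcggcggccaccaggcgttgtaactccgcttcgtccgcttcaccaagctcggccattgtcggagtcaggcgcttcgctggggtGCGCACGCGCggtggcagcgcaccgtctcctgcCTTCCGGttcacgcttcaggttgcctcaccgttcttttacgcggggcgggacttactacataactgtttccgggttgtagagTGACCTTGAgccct
Atp5j, chr16:84834927-84835226, minus strand: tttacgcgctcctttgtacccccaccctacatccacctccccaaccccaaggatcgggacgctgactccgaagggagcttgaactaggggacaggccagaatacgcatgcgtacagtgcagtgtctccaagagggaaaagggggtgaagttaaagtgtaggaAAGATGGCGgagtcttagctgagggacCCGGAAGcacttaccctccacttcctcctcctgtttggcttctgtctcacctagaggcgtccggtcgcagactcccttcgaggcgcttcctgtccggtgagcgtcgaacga

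The other isoform partners in complex IV had estimates in F0 that differed from gene to gene. Cox7a2, the form found in most tissues, had an estimate of -0.04 (95% interval -0.30 to 0.23). Cox8b, a muscle and heart form, had -0.24, the same as its widely expressed partner Cox8a (adjusted p = 0.348 and 0.369). The Cox8a signal was 5.84 in the exercised and 5.87 in the sedentary F0 pool, below the descendant range of 5.93 to 6.54. Cox6a2, again a muscle and heart form, had 0.05 and its partner Cox6a1 -0.04, with an interval from -0.50 to 0.42 for Cox6a1. Cox4i1, the common form of the largest nuclear-encoded complex IV subunit, had 0.10, and Cox4i2, a form best known from lung, 0.18. Both were highest in the F0 SED array, at 10.30 for Cox4i1 and 4.80 for Cox4i2, so their direction was the reverse of most members there. For Cox4i1 and Cox6a2 the estimates without F0 SED were -0.07 and -0.11. No difference between isoform partners was tested, and signals of different probe sets were not set against each other as levels. Among the remaining complex IV genes Cox6b1 had -0.31 (adjusted p = 0.179) and Cox5a -0.27 (0.213). Over all 14 tested complex IV genes the median was -0.15, with 11 estimates below 0.

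Complex III held the member with the second smallest p, Uqcrb, a small subunit near the ubiquinone site. Its signal was 10.50 in F0 EX and 9.44 in F0 SED, and in the descendants it ran from 10.32 through a median of 10.44 to 10.68. Only F0 SED lay outside the descendant range. The estimate for Uqcrb was -0.50 (SE 0.182, limma adjusted p = 0.172), and it was 0.01 without F0 SED and -1.01 with F0 SED alone (adjusted p = 0.982 and 0.00465). Uqcrq, which sits beside cytochrome b in complex III, had 8.85 in the exercised and 8.70 in the sedentary F0 pool, below the descendant range of 8.89 to 9.28. Its estimate was -0.32 (adjusted p = 0.190). The core proteins Uqcrc1 and Uqcrc2 had -0.25 and -0.11, the Rieske iron-sulfur protein gene Uqcrfs1 -0.05, the hinge protein gene Uqcrh -0.27, and Uqcr10 and Uqcr11 -0.03 and -0.10. Cyc1, the cytochrome c1 that gives electrons to cytochrome c, had 0.02 (95% interval -0.27 to 0.30). Cycs, cytochrome c itself, had -0.26 (adjusted p = 0.402), with 10.42 in F0 EX, 10.14 in F0 SED and a descendant range of 10.05 to 10.69. For Cycs the estimate was -0.07 without F0 SED and -0.34 without F1 EX pool 1 (adjusted p = 0.932 and 0.0514).

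In complex V, all 17 tested genes had estimates below 0 in F0, with a median of -0.12 over 5 F1 sector genes and -0.19 over 12 genes of the Fo sector and stalks. This shared direction leaned in part on the sedentary F0 pool. Its median deviation from the genes' own means over 10 arrays was -0.21 for the F1 sector and -0.27 for the Fo sector and stalks. The exercised F0 pool was at 0.02 and 0.01, within the descendant ranges of -0.04 to 0.18 and -0.06 to 0.13. The alpha and beta subunits of the catalytic head, Atp5a1 and Atp5b, had estimates of -0.16 and -0.10, and the central stalk genes Atp5c1, Atp5d and Atp5e -0.12, -0.21 and -0.02. Atp5g1, Atp5g2 and Atp5g3, whose mature products form the rotating c ring, had -0.09, -0.26 and -0.13. Among peripheral stalk genes Atp5pb had -0.29 (adjusted p = 0.194), Atp5h -0.23 (0.239), Atp5o -0.20 (0.338) and Atp5j -0.02 (0.957). Atp5o had 9.60 in the exercised and 9.54 in the sedentary F0 pool, below the descendant range of 9.64 to 9.92. Atp5md, a small membrane protein associated with ATP synthase dimers, had the largest estimate of all members at -0.58, but with an interval from -1.25 to 0.09 and an adjusted p of 0.352. Its signal was 10.90 in F0 EX, 9.59 in F0 SED, 9.93 in F1 EX pool 1 and 10.79 to 11.06 in the other descendant arrays. Without F0 SED the estimate for Atp5md was 0.17, and without F1 EX pool 1 it was -0.73 (adjusted p = 0.894 and 0.0506). The wide interval thus went with low values in both arrays that stood apart. In complex II, the subunits had a median of -0.12 and the assembly factors -0.06. The iron-sulfur protein Sdhb had 0.00 (95% interval -0.20 to 0.21), Sdhc -0.08, and the flavoprotein Sdha and the membrane anchor Sdhd -0.16 each. For Sdha the F0 pools lay on opposite sides of the descendant range of 11.34 to 11.52. Its signal was 11.62 in F0 EX and 10.96 in F0 SED. The complex II assembly factors ran from -0.25 for Sdhaf2, which helps attach the flavin to Sdha, to 0.05 for Sdhaf1.

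Groups that did not overlap gave 5 members with both F0 arrays below all 8 descendant arrays: Atp5o, Cox5a, Cox7a1, Cox8a and Uqcrq. Over all genes tested, 6.65% were separated in that direction. In the other direction 0 members were separated, where 5.79% of genes were. The lists of related genes had no called member in this comparison either. The complex III assembly factors (5 tested of 6 listed) had a median of -0.11, with Uqcc1 at -0.41. The complex IV assembly factors (17 of 21) had 0.06, with Taco1, a translational activator of Cox1, at -0.45 and the haem a synthase Cox15 at -0.39. The complex V assembly factors and inhibitor (4 of 4) had -0.04, with Atpaf2, which assists the alpha subunit, at 0.27. Cristae and supercomplex genes (8 of 10, with a further 1, Usmg5, a member as Atp5md) had -0.18, with Chchd3, a protein of the cristae junctions, at -0.25. The regulators of mitochondrial genes (10 of 10) had 0.02, with the nuclear receptor Esrrg at 0.17 and Nrf1 at -0.09. The coactivator Ppargc1a had -0.04. Symbols beginning with mt- numbered 0 on the table, so the mitochondrially encoded partners of these complexes were not analysed here.

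The exercised and sedentary F0 pools, the only animals whose own activity differed, could be compared by size alone, since each condition had 1 pool. As deposited, 37 of 49 members were higher in F0 EX, against 58% of all genes tested, with a median of 0.18 against 0.08. By at least 0.5 there were 7 members higher, where 15.3% of genes were, and 0 lower, where 5.38% were. The highest differences were those of Atp5md (1.32), Uqcrb (1.06), Sdha (0.66), Uqcrc1 (0.55) and Cox7a1 (0.54). The lowest were those of Cox6a1 (-0.49), Uqcr11 (-0.30), Cox4i2 (-0.28), Cox6a2 (-0.22) and Atp5e (-0.21), the epsilon subunit of the central stalk. By role, the medians were 0.13 in complex IV, 0.15 in complex III, 0.19 for complex II subunits and 0.20 for its assembly factors. They were 0.23 for the F1 sector and 0.27 for the Fo sector and stalks, and Cycs had 0.28. All 12 genes of the Fo sector and stalks were above 0, as were the 4 complex II assembly factors and Cycs.

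The scaling set the sign of this comparison for many members. With each array centred on its median 43 of 49 members were above 0 with a median of 0.33, but the median of all genes was then 0.22. With quantile normalization 25 members were above 0 and 24 below, the median was 0.00, and that of all genes 0.01. Relative to all genes the members' median was 0.11, 0.11 and -0.01 as deposited, centred and quantile-normalized. Under quantile normalization Atp5md was higher in F0 EX by 1.10, Uqcrb by 0.78 and Sdha by 0.41. F0 EX itself lay within the range of the 8 descendant arrays for Atp5md (10.90) and Uqcrb (10.50), and F0 SED lay below it for both. For Sdha, F0 EX (11.62) lay above that range and F0 SED (10.96) below it. The median deviation of members from their own mean over 10 arrays was -0.01 in F0 EX and -0.19 in F0 SED, and from -0.06 to 0.13 in descendants.

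**Figure D3:**
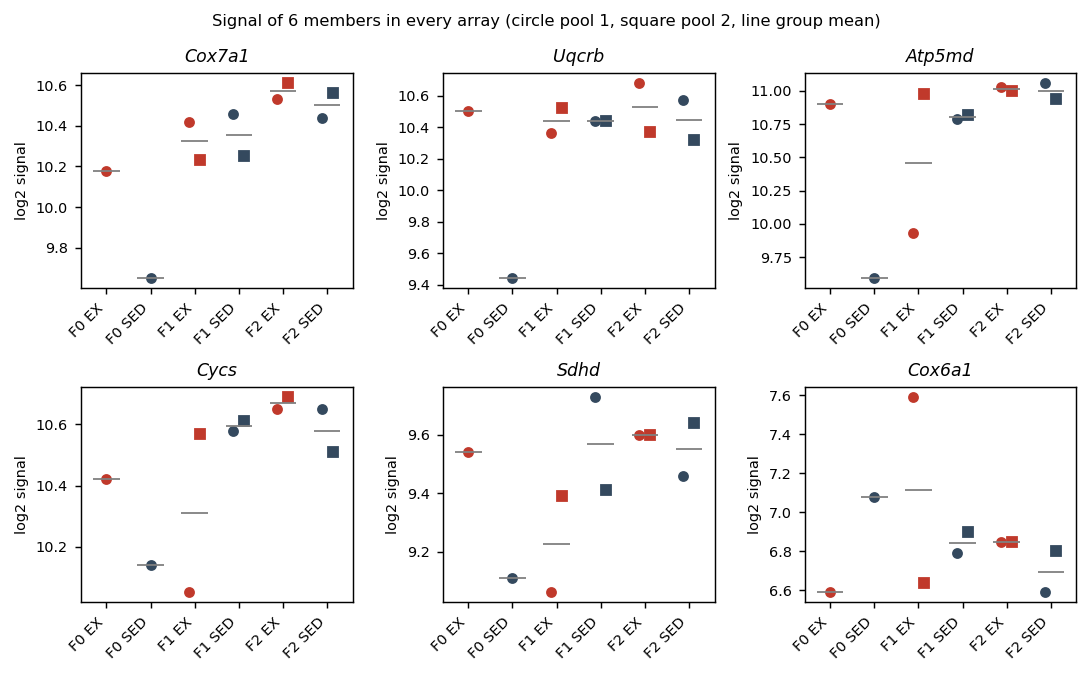
Log2 signal of 6 members in every array, by group (EX red, SED dark; circles pool 1, squares pool 2, lines the group means; each panel has its own vertical axis, which does not start at 0). Cox7a1 and Uqcrb are lowest in F0 SED, Atp5md, Cycs and Sdhd are low in both F0 SED and F1 EX pool 1, and Cox6a1 is highest in F1 EX pool 1 at 7.59.

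In the descendants, exercised and sedentary ancestry were compared, and no member passed the test. For F1 and F2 together, the model held generation and compared 4 EX with 4 SED pools. Estimates lay between -0.17 (Atp5md and Cox8a) and 0.21 (Cox6a1 and Sdhaf4), and 30 of 49 were above 0, where 53.3% of genes were. The median was 0.02 against 0.01 over all genes. With limma 0 of 49 members passed, as did 0% of all genes, and 0 had an unadjusted p under 0.05, where 4.99% of genes did. The adjusted p was at least 0.888 for each member. Groups did not overlap for 0 members in either direction, where 1.75% of genes were separated with EX higher and 1.28% with EX lower. Cox7a2 had the smallest p, at 8.07 ± 0.19 in EX and 7.87 ± 0.11 in SED (SD, n = 4 each), an estimate of 0.20 (SE 0.109). Cox4i1 had 0.14, Atp5pb 0.14, Cox8a -0.17, Sdhd -0.15 and Cox6c, another small complex IV subunit, -0.09. Without F1 EX pool 1 the estimate was 0.11 for Cox7a2, -0.04 for Sdhd, 0.08 for Atp5md, 0.01 for Cox6a1 and -0.04 for Sdhaf4. The 95% interval lay within 0.5 either side of 0 for 46 of 49 members, and within 0.25 for 15. Among all genes 89.1% lay within 0.5. Without F1 EX pool 1 the members' median was 0.00, against 0.01 over all genes, with 24 estimates below 0.

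**Figure D4:**
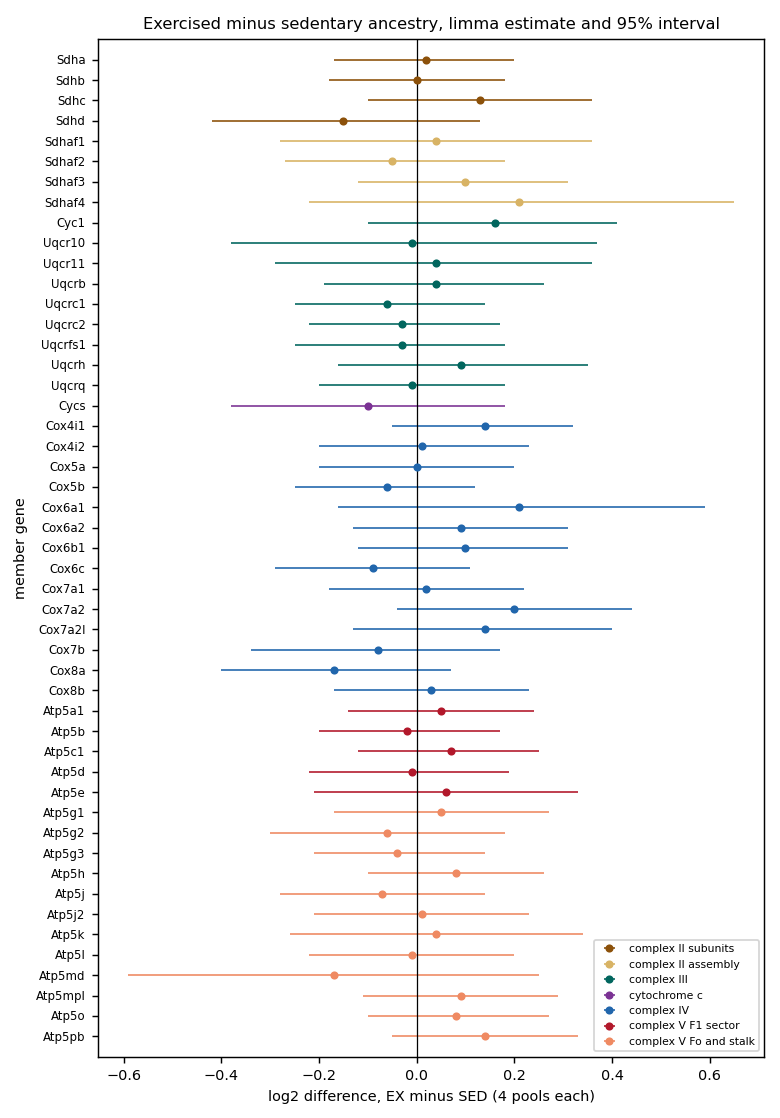
Limma estimates (points) and 95% confidence intervals (bars) of the log2 difference between 4 EX and 4 SED descendant pools, F1 and F2 together, for 49 members coloured by complex. Every interval covers 0, and the widest belong to Sdhaf4, Atp5md, Cox6a1 and Uqcr10.

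In F1, the sons, estimates for EX minus SED ran from -0.35 to 0.34 with 26 of 49 above 0, where 48.9% of genes were. With quantile normalization 37 were above 0, with a median of 0.08 against 0.02 over all genes. With centring 22 were, with -0.01 against -0.04. As deposited the median was 0.02, against 0.00 over all genes, and 0 of 49 members passed with limma (0% of all genes). At an unadjusted p under 0.05 there was 1 member, with EX higher, where 4.88% of genes were in either direction and 1.98% with EX higher. It was Sdhaf3, an assembly factor for the iron-sulfur subunit, at 5.32 and 5.24 in F1 EX and 5.03 and 4.98 in F1 SED (estimate 0.27, SE 0.118, adjusted p = 0.804). Sdhd had -0.35 (SE 0.160), with 9.06 and 9.39 in F1 EX and 9.73 and 9.41 in F1 SED. Cycs had -0.28, with 10.05 and 10.57 in F1 EX and 10.58 and 10.61 in F1 SED. In both genes the low value was that of F1 EX pool 1, and without it the estimates were -0.18 for Sdhd and -0.02 for Cycs. Of the others named by the rule, Cox7a2 had 0.28, Uqcrh 0.25 and Cox6c -0.20. Without that pool these were 0.09, 0.08 and -0.10, and Sdhaf3 was at 0.23. The groups did not overlap for 4 members with EX higher and 6 with EX lower, where 13% and 16.6% of genes did so. Between the F1 EX pools 10 of 49 members differed by at least 0.5, against 0 in each of the other descendant groups. Over all genes the shares were 15.3% in F1 EX and 2.33% to 2.88% in the others. With F1 EX pool 1 as the only F1 EX array 5 members were called (Atp5md, Cox6a1, Cyc1, Cycs and Sdhaf4), where 8.74% of genes were. Without F1 EX pool 1 the members' median was -0.05, against -0.03 over all genes, with 36 estimates below 0.

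In F2, the grandsons, estimates ran from -0.24 to 0.17 with 35 of 49 above 0, where 60.7% of genes were. With quantile normalization 24 were above 0 and 25 below, with a median of 0.00 against 0.02 over all genes. With centring 43 were above, and the median was 0.10 for members and for all genes alike. As deposited the median was 0.04, the same as over all genes. With limma 0 of 49 members passed (0% of all genes), and 0 had an unadjusted p under 0.05, where 4.45% of genes did. Cox8a had the smallest p, with 6.08 and 6.05 in F2 EX and 6.08 and 6.54 in F2 SED (estimate -0.24, SE 0.155, adjusted p = 1). The value of 6.54 lay apart from the other 3, and without F2 SED pool 2 the estimate was -0.02. Cox4i1 had 0.17, with 10.24 and 10.15 in F2 EX above 10.07 and 9.99 in F2 SED. Atp5o had 0.16. Atp5mpl, another small protein of the Fo sector, also had 0.16, with 10.77 and 10.49 in F2 EX and 10.49 and 10.46 in F2 SED, and 0.02 without F2 EX pool 1. Cox4i2 and Atp5g2 had -0.11 each. The groups did not overlap for 10 members with EX higher, where 25.8% of genes did so, and for 1 with EX lower, where 14.6% did. The F2 effect minus the F1 effect was tested directly, and 0 of 49 members passed with limma (0% of all genes). None had an unadjusted p under 0.05 there, where 4.34% of genes did. The smallest p in each direction belonged to Sdhd (0.40), Cycs (0.37) and Sdhaf2 (0.29), and to Sdhaf3 (-0.35), Uqcrh (-0.32) and Cox4i2 (-0.24), each with an adjusted p of 0.919. Without F1 EX pool 1 these were 0.23, 0.11 and 0.15, and -0.31, -0.14 and -0.09. Above 0 were 28 of 49 members, where 56.2% of genes were. That count was 42 without F1 EX pool 1, 16 with quantile normalization and 35 with centring. The median was 0.04, and in those settings 0.11, -0.06 and 0.13. Over all genes these medians were 0.04, 0.07, 0.00 and 0.13. With F1 EX pool 1 as the only F1 EX array, Atp5md was called, where 1.2% of genes were.

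F2 against F1, both at 8 weeks of age, placed more members above 0 than below. Estimates were above 0 for 36 of 49, against 51.6% of all genes, and the median was 0.06, against 0.00. None passed with limma (0 of 49, and 0% of all genes), and the adjusted p was at least 0.911. At an unadjusted p under 0.05 there were 2 members, Uqcrq and Atp5e, both higher in F2, where 4.25% of genes were in either direction and 2.45% with F2 higher. The 4 F2 arrays had 9.20 ± 0.08 (SD) for Uqcrq and the 4 F1 arrays 8.98 ± 0.08, which differ by 0.23 (SE 0.0864). It was the only member whose F1 and F2 arrays did not overlap, where 1.77% of genes were separated with F2 higher. Atp5e was at 8.79 ± 0.04 and 8.52 ± 0.25, a difference of 0.28 (SE 0.120), and 0.40 without F1 EX pool 1. Cox7b, a small complex IV subunit, had 0.25, Cox7a1 0.20 and Atp5md 0.38, which was 0.13 without F1 EX pool 1. Cox6a1 had -0.21, Sdhaf3 -0.18 and Cox4i2 -0.10. Without F1 EX pool 1 these were -0.01, -0.13 and -0.02. All 12 genes of the Fo sector and stalks but Atp5h (-0.01) were above 0, with a median of 0.08. The probe sets of Atp5h not used in the tests gave 0.15 and 0.24. The members' median was 0.10 with centring, 0.02 with quantile normalization and 0.07 without F1 EX pool 1. Over all genes these were 0.05, 0.00 and 0.01. The F0 comparison uses the same F1 and F2 arrays as its other arm, and so is not independent of this one.

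The arrays that stood apart were each set against the other 8 arrays. F0 SED lay below the whole range of the 8 for 30 of 49 members (61.2%, against 32.8% of all genes tested) and above it for 5 (10.2%, against 18.8%). F1 EX pool 1 lay below it for 11 (22.4%, against 22.7%) and above it for 19 (38.8%, against 26.1%). The low share of members in F1 EX pool 1 was thus that of genes at large. Both arrays are measured from the same 8, so their deviations are given side by side and not as agreement. Atp5md had the lowest deviation in each, at -1.36 in F0 SED and -1.01 in the F1 pool, while Uqcrb had -1.04 and -0.12. Cycs had -0.45 and -0.54, Sdhd -0.43 and -0.49, Cox6a1 0.33 and 0.84, and Cyc1 0.14 and 0.46.

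**Figure D5:**
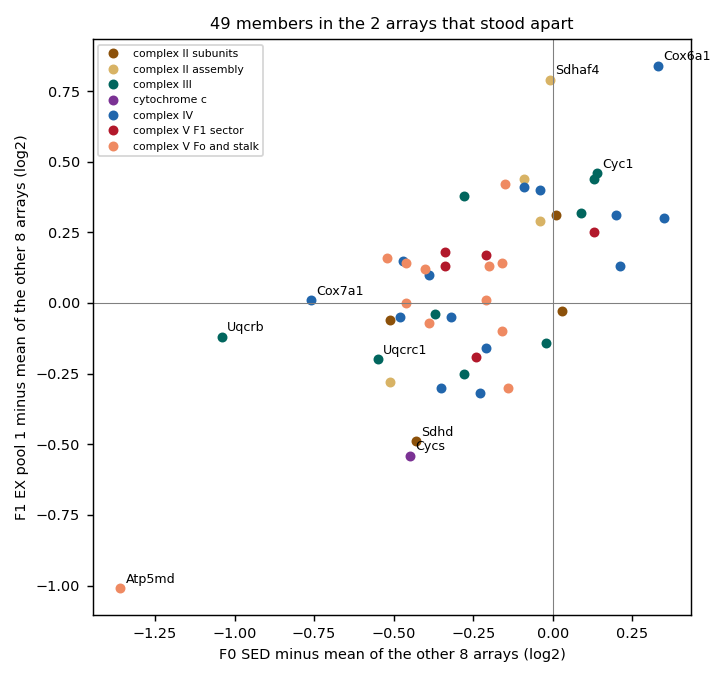
Deviation of 49 members (points, coloured by complex) from the mean of the other 8 arrays, on the log2 scale, in F0 SED (horizontal axis) and in F1 EX pool 1 (vertical axis). Atp5md is far below 0 on both axes, Uqcrb and Cox7a1 are low in F0 SED alone, and Cox6a1 and Sdhaf4 are the highest in F1 EX pool 1, at 0.84 and 0.79.

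For 14 of 52 members the annotation listed several probe sets, 6 of them for Atp5l, and these did not always move alike. All 3 probe sets of Atp5md were higher in F0 EX than in F0 SED, by 1.32, 0.99 and 1.17. They were low in F1 EX pool 1 as well, at 9.93, 8.59 and 7.06, against 10.98, 9.53 and 8.54 in F1 EX pool 2. The 3 sets of Uqcrb differed between the F0 pools by 1.06, 1.09 and 0.36, and a set not used in the tests was at 9.46 in F1 EX pool 1, against 10.31 in F1 EX pool 2, where the set used had 10.36 and 10.52. For Cycs the sets differed between the F0 pools by 0.28, 0.75 and 1.27, the last from a set with a mean of 3.82. The 6 sets of Atp5l, the g subunit of ATP synthase, gave 0.29 to 1.26 there, with 0.53 for the set used. For Atp5pb the set used had 0.52 and the other -0.04. For Cox7b these values were 0.03 and 0.76, and for Uqcr11 -0.30 and -0.76. In F0 against descendants the set used and the other gave -0.29 and 0.00 for Atp5pb, and -0.10 and 0.13 for Uqcr11. For Cox7b they gave -0.21 and -0.58 there. Whether some of these sets read near-identical copies of the gene was not tested, and members whose sets differ are uncertain to that extent. With the mean of all probe sets of a gene, 42 of 49 members were below 0 in F0 against descendants, and 0 were called.

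Letter patterns of factors known to act on nuclear genes of mitochondrial proteins were counted in the members' promoters. RefSeq windows of 300 bases were matched for 40 of 52 members through gene identifiers, and 4 letter patterns were searched on both strands. The type bound by nuclear respiratory factor 1 (NRF1), GCGC on either side of 2 free bases, was found in 12 of 40 members (30%), against 7% of 27025 genes and 9.61% of 17492 protein-coding genes. CCGGAAG, of the type bound by ETS factors such as the GA-binding protein, was found in 16 (40%), against 9.93% and 12.9%. TCAAGGTCA, of the estrogen-related receptor type, was found in 2 (5%), Atp5g3 and Sdhd, against 0.466% and 0.377%. AAGATGGCG, of the YY1 type, was found in 2, Atp5j and Atp5j2, against 1.64% and 2.14%. None of the patterns holds another, and a match describes letters only. The base composition of the windows was not matched, and no test was made. The Sdhd window printed above holds 3 of the 4 patterns, with the first base of its NRF1-type match at -79, of the ETS-type match at -46 and of the ERR-type match at 37, counted from the start site as 1. RefSeq gives Atp5j 2 windows. The printed 1 holds the YY1 type at -88 and the ETS type at -61, and the other holds none of the 4. The window of Atp5md holds an ETS type at 3. In the Cox7a1 window none of the 4 was found.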

How the data were processed

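Gastrocnemius RNA of 10 pools was measured on 10 arrays. The deposited table holds log2 signals from 0.966 to 14.2 for 35557 probe sets, a scale inferred from their range. Per the submitters' processing notes, Affymetrix Expression Console made them (version, normalization and build: not given in the sources used here). Values entered as deposited, and precision is limited by how few arrays there were. The platform annotation (undated, possibly old) named 1 symbol for 21789 probe sets, more for 1621 and no symbol for 12147.

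Tests used limma 3.58.1 (R 4.3.3) with Benjamini-Hochberg adjustment over 11963 genes: the 4 descendant groups in 1 model, generation and ancestry additively on 8 arrays, and F0 against descendants with ancestry on 10 arrays. The fits were tested on simulated data. Members and lists were chosen with earlier results of these data known. Examples named were, per comparison, the 3 smallest p in each direction, the 5 highest and lowest F0 differences, isoform partners and list members with small p, plus Ppargc1a; the members whose probe sets or arrays are described were chosen after their values were seen. Alternatives changed scaling, filter, probe set rule, model and arrays.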

Additional observations from a re-analysis of the deposited data

Results flagged for a closer look

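In 9 of 49 members 1 array lay far from the other 7 descendant arrays, with a gap to its neighbour, as a share of the whole range, above Dixon's 95% critical value for 8 values. Chance flags about 1 in 20 groups, but 16.6% of all genes tested met the same bound, against 18.4% of members. F1 EX pool 1 was that array for 7 of the members (14.3%, against 13% of all genes). It was lowest for Atp5md (gap of 0.759 of the range), Cycs (0.728) and Atp5j (0.559), and highest for Cox6a1 (0.691), Cox4i2 (0.650), Cyc1 (0.635) and Cox6a2 (0.534). F2 SED pool 2 was highest for Cox8a (0.743), and F2 EX pool 1 for Atp5mpl (0.731).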

How the results depend on the processing

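For the exercised and sedentary F0 pools, the members' median was 0.33 with centring, against 0.22 over all genes, and 0.00 with quantile normalization, against 0.01. By at least 0.5, 15 members were higher with centring, and 2 were higher and 2 lower with quantile normalization. With the mean of all probe sets 1 was lower. These counts have no share of all genes beside them, so they show nothing particular to the members. For the difference of ancestry effects the median was 0.13 with centring and -0.06 with quantile normalization, against 0.13 and 0.00 over all genes. Between F2 and F1, trend and robust settings called 2 genes and array weights 1, with 0 members among them. For F0 against descendants the median was -0.04 with quantile normalization, against 0.00 over all genes. Without the arrays that stood apart it was also -0.04, against 0.03 over all genes, with Cox4i1 and Cox6a2 at -0.05 and -0.03. Genes called there numbered 204 without these arrays, 30 with array weights and 14 for F0 against F1, and 1 member, Cox7a1, passed with trend and robust settings. The causes were not tested.

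Leaving out 1 array in turn gave, for F1 ancestry, medians from -0.05 to 0.13, 0 to 1046 genes and 0 to 5 members called. For the difference of effects it gave medians from -0.05 to 0.11, 0 to 143 genes and 0 to 1 members (Atp5md, without F1 EX pool 2). For F0 against descendants it gave medians from -0.26 to -0.07, 89 to 1297 genes and 0 to 6 members, with Cox4i1 from -0.07 to 0.26, Cox6a2 from -0.11 to 0.21 and Uqcrb from -1.01 to 0.01. Atp5g2 in F2 ran from -0.26 to 0.04. With 1 array left in a group, that array was assumed to vary like the others.

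The replicate block left 0 members and 0 genes called in each comparison of descendants, and medians such as 0.02 for ancestry were as without it. Same-numbered pools did not deviate together (r from -0.11 to 0.06 over 6 pairs of groups). For F0 no block could be fitted, since its pools carry no number.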
